A study of Mus musculus with 12 samples.

Results

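The genes described here are 10 members of the IL-17, IL-22, IL-23 and IL-10 axis, chosen by symbol in the deposited tables of mouse colon and whole blood. They are the cytokines Il17a, Il22, Il10 and Ifng, the cytokine subunit Il23a, and the receptor genes Il17ra, Il22ra1, Il22ra2, Il23r and Il10ra, out of 53801 gene identifiers counted. All 10 are in the colon table and 6 are in the blood table. The mice were male C57BL/6 animals, 8 weeks old when obtained, with no engineered allele. Ulcerative colitis (UC) was modelled by giving dextran sulfate sodium (DSS), a sugar polymer that injures the gut lining, at 1.5% in the drinking water for 7 days. Control mice drank the same water with no DSS, and all mice were killed on day 8. Each of the 4 labelled groups holds 3 libraries of total RNA, namely UC colon and UC blood of mice 1, 2 and 4, and control colon and control blood of mice 7, 8 and 9. The study chose these 6 of its mice by a clinical score of disease activity, so the groups are not a random draw.

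IL-23, built of the p19 subunit (Il23a) and the p40 subunit (Il12b), is released by myeloid cells and binds a receptor of Il23r and Il12rb1 on T cells and innate lymphoid cells. Cells so stimulated can make IL-17A and IL-22. IL-17A acts through Il17ra and Il17rc and makes epithelial and stromal cells release chemokines that draw neutrophils. IL-22 acts on epithelial cells, which carry Il22ra1 with Il10rb and answer with antimicrobial proteins, while Il22ra2 encodes a soluble decoy that binds IL-22 without signalling. IL-10, which signals through Il10ra and Il10rb, restrains inflammation in the gut, and interferon gamma (Ifng) is the product of type 1 T cells and natural killer cells.

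A close copy of Il22 bears on how its counts can be read. Iltifb lies on the same chromosome and the opposite strand, and in GENCODE vM21 (GRCm38) the coding parts of the pair share 98.32% of 537 bases. They differ at 9 bases in 5 coding exons, and the longest identical run is 215 bases. Shown are coding exons 2 and 5, which hold 3 differing bases each, in capitals. Il22 exon 2 is at chr10:118205570-118205635 on the plus strand and that of Iltifb at chr10:118294345-118294410 on the minus strand. Exon 5 lies at chr10:118209449-118209523 in Il22 and at chr10:118290154-118290228 in Iltifb.
Il22 exon 2: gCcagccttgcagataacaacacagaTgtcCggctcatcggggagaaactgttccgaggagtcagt
Iltifb exon 2: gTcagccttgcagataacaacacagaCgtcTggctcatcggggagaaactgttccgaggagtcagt
Il22 exon 5: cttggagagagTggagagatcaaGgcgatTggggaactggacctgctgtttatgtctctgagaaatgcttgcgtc
Iltifb exon 5: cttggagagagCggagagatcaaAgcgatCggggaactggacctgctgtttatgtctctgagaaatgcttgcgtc

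Promoter letters are shown for the cytokine gene Il17a and the receptor gene Il22ra1. They are the members whose window held a match to TGANTCA, a loose pattern for the inducible factor AP-1, with any base at N. Both matches read TGAATCA, with A as the middle base. RefSeq (GRCm38.p6) entries were found for 5 of the 10 members (Il17a, Il22, Il22ra1, Il23r and Ifng). The 250 bases before the start site were searched on both strands, and capitals mark the matches. Il17a (chr1:20730655-20730904, plus strand) holds 1 match from -244 to -238, and Il22ra1 (chr4:135727909-135728158, plus strand) holds 1 from -222 to -216.
Il17a: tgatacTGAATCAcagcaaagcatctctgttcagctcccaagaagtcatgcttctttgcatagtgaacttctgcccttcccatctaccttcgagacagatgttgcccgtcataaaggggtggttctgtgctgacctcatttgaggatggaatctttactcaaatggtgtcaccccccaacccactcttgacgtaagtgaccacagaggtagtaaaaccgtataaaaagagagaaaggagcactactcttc
Il22ra1: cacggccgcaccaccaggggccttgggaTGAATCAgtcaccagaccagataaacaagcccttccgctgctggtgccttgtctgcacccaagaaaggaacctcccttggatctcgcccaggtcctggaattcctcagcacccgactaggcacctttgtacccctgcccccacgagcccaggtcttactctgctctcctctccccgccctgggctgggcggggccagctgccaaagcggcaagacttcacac
A TGANTCA match was present in 6.75% of 32851 promoter windows of this length. Ifng had 1 match to the STAT letters TTCNNNGAA, present in 7.02%, and Il22 and Il23r had no match to either set of letters. A match is a description of letters and was not tested as a binding site.

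Total counts ran from 69181049 to 103662306 in the colon libraries and from 80867247 to 142536804 in the blood libraries. A pair of label fields gives opposite tissues in all 12 samples. The groups follow the tissue characteristic, under which summed red cell markers were between 3925450 and 7741147 normalized counts in blood and at most 4009 in colon, and summed epithelial markers at least 548405 in colon and at most 200.2 in blood. An inflammatory marker did not part by the disease labels in either tissue. S100a8, a neutrophil gene, stood at 5370, 33.1 and 22.3 normalized counts in colon of mice 1, 2 and 4, labelled UC. In mice 7, 8 and 9, labelled control, it stood at 1888, 75.6 and 13337. In blood S100a8 stood at 88578, 14299 and 11466 against 37179, 8642 and 101913. Its blood log2FC, labelled UC over labelled control, was the lowest of 7 neutrophil markers (-0.37), of which 5 were positive and 2 negative. In the colon all 7 were negative. As S100a8 did not part by the labels, groups are named "labelled UC" and "labelled control" throughout, and a direction is one between those labels. Whether each library carries the label of its mouse was not tested.

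In the colon, Il17a, Il22 and Il10 had no counts in mice 2, 4 and 8 and were present in mice 1, 7 and 9, so the libraries parted across the labels and not along them. The unit is the authors' normalized count, the count divided by 1 factor per library and comparable within a tissue. Il17a, the founding cytokine of its family, stood at 10.4, 0 and 0 normalized counts in mice 1, 2 and 4, labelled UC, against 17.7, 0 and 71.1 in mice 7, 8 and 9, labelled control. Il22, the epithelial defence cytokine, had 62.5, 0 and 0 against 136.6, 0 and 150.3. Il10, the inhibitory cytokine, had 46.4, 0 and 0 against 7.59, 0 and 106.2.
A count of 0 allows up to 3 counts, which as normalized counts is 2.613, 2.475 and 3.781 for mice 2, 4 and 8 respectively, for counting error only. Being at 0 in these 3 libraries and above 0 in the other 3 was seen in 0.694% of the 32689 genes of the colon table. Il10 did not pass the filter on low counts and is too low to read as a comparison.

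Ifng stood at 3.79, 0 and 2.475 normalized counts in labelled UC colon, against 11.4, 10.1 and 117.9 in labelled control colon. The labelled groups did not overlap, which held for this 1 member of 10 and for 5.24% of the colon table, but the counts were 4, 0 and 3 against 9, 8 and 131. Mouse 9 alone carried most of them, and the gene did not pass the filter, so by that rule it too is too low to read in the colon. With no filter its edgeR log2FC was -4.41 (SE 1.41, unadjusted p = 0.0169, adjusted p = 0.9996), and DESeq2 gave -4.49 (unadjusted p = 0.0008998, adjusted p = 0.9193). Without mouse 9 the edgeR value was -2.33 (SE 1.21). Mouse 9 also had the most Il17a, Il22 and Il10.

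**Figure D1:**
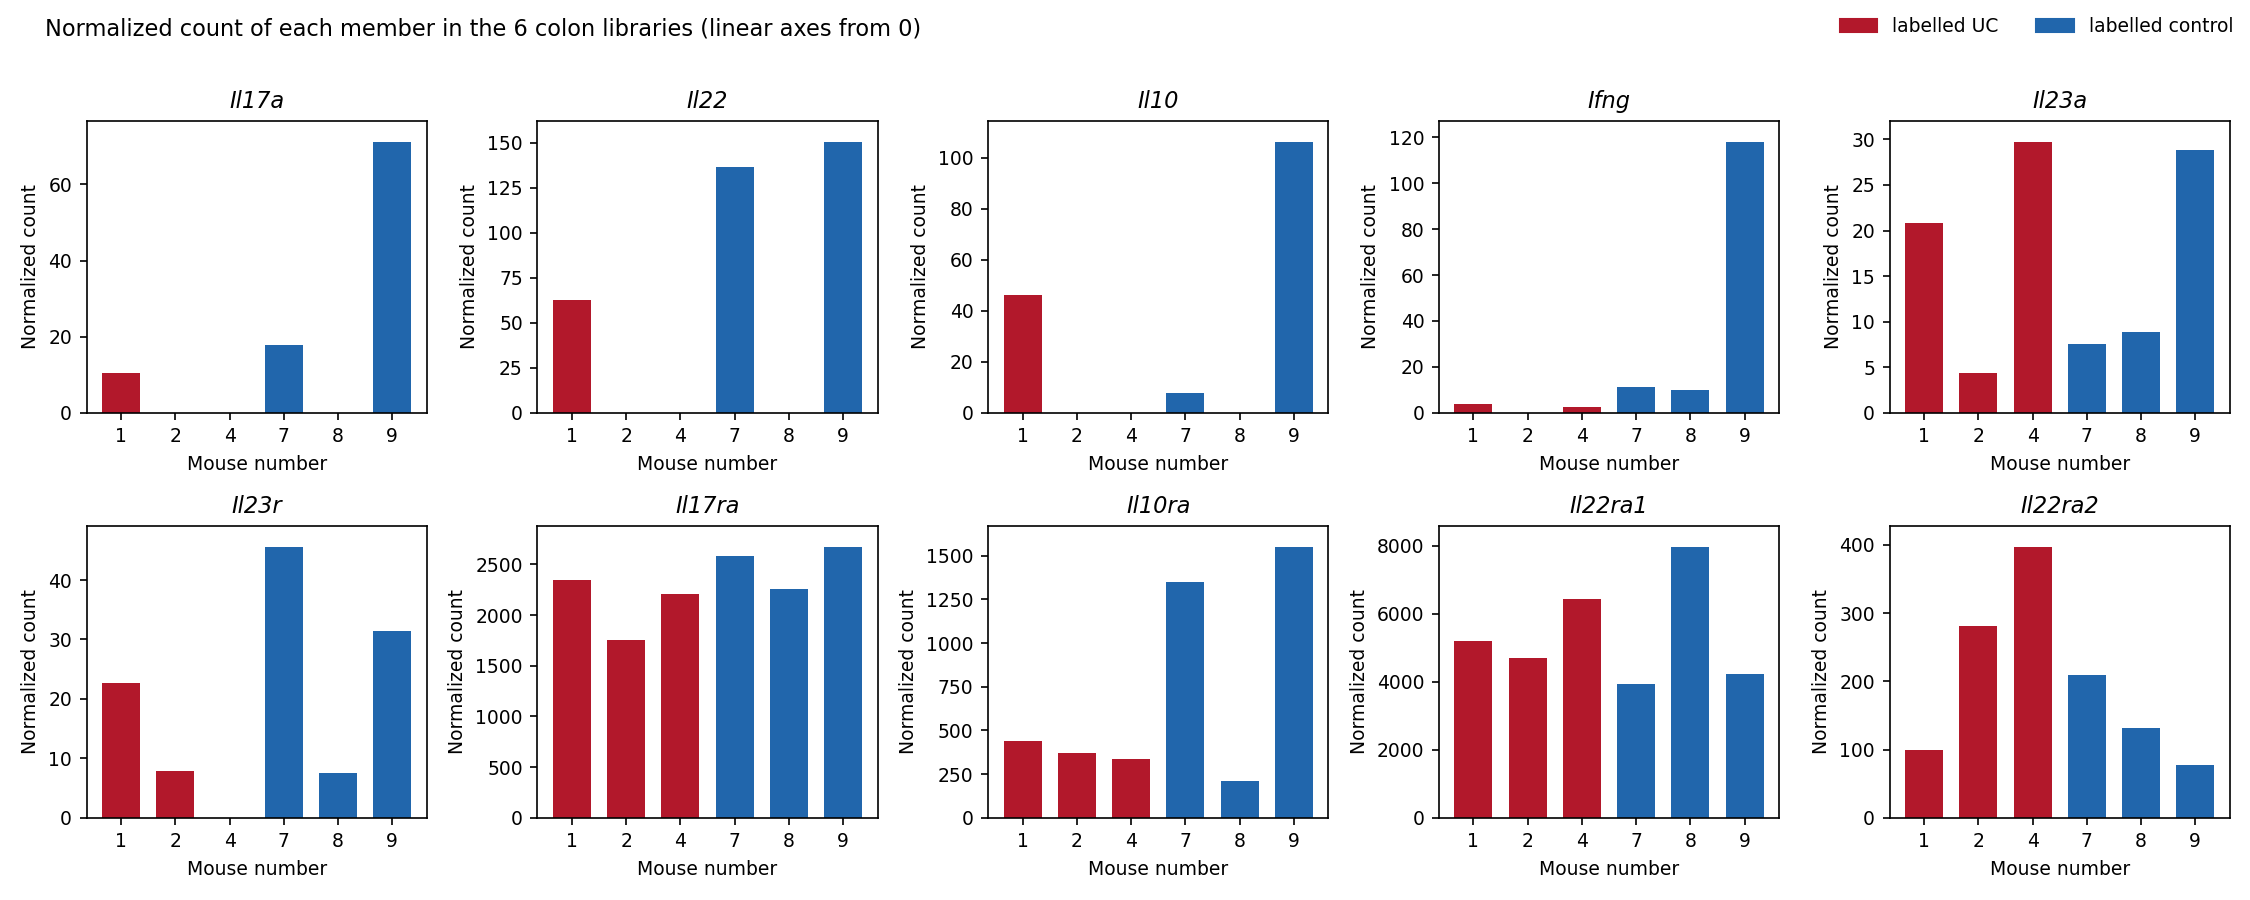
Normalized count (vertical axis, linear from 0) of each of the 10 members in the 6 colon libraries, with mouse number on the horizontal axis and 1 bar per library, red where labelled UC and blue where labelled control. Il17a, Il22 and Il10 have bars in mice 1, 7 and 9 and none in mice 2, 4 and 8, while Il22ra1 lies between 3924 and 7954 in every library.

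The IL-23 genes were low in all colon libraries. Il23a stood at 20.8, 4.35 and 29.7 normalized counts in labelled UC colon, against 7.59, 8.82 and 28.8 in labelled control colon, from 5 to 36 counts. The highest 3 were mice 1, 4 and 9, and the groups overlapped. Il12b, which encodes the p40 partner, had normalized counts of 21.8, 0 and 4.95 against 45.5, 0 and 50.4, so the library with the most Il23a, mouse 4, had little Il12b. Il23r had normalized counts of 22.7, 7.84 and 0 against 45.5, 7.56 and 31.5, with its 3 highest in mice 1, 7 and 9. Il12rb1, its co-receptor, had 54.9, 17.4 and 4.95 against 140.4, 16.4 and 186.3, also highest in mice 1, 7 and 9.

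Among the receptors, the highest colon library was 1.52-fold the lowest for Il17ra and 2.03-fold for Il22ra1. Il10ra (7.32-fold) and Il22ra2 (5.13-fold) varied more, and were highest in different libraries. Il17ra stood at 2347, 1753 and 2208 normalized counts in labelled UC colon, against 2578, 2252 and 2670 in labelled control colon. Il22ra1, the epithelial IL-22 receptor, stood at 5202, 4685 and 6431 against 3924, 7954 and 4223. Il10ra had 438.5, 371.9 and 334.9 against 1351, 211.8 and 1549, so that mice 7 and 9 stood above the other 4 libraries. Il22ra2, the decoy, ran otherwise: its normalized counts were 99.5, 281.3 and 396.8 against 209.9, 131.1 and 77.4, with the highest 3 in mice 2, 4 and 7.
Il10ra shares its locus with the pseudogene Gm20612 on the other strand and with Mir7086, and Ifng with the transcript model Gm49751, and no library strand is stated for the counting, so reads in those stretches cannot be assigned with certainty.

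The comparison of labelled UC with labelled control colon called none of the members. Of 22238 genes tested with edgeR, 1 was called (0.0045%), a call needing an adjusted p no higher than 0.05 with a log2FC past 1 in either direction. This took in 0 of the 8 members that passed the filter. Over all genes, 313 had an unadjusted p under 0.05, none of them a member, and DESeq2 called 6 genes and 0 members. The largest fitted differences had the widest intervals: Il17a had a log2FC of -3.09 (SE 1.91, 95% confidence interval -7.69 to 1.50) and Il22 one of -2.21 (SE 2.15, interval -7.37 to 2.95). Both rest on groups in which libraries at 0 stand beside libraries with counts. Without mouse 1, which leaves both labelled UC libraries at 0, the fitted values were -7.91 for Il17a and -9.60 for Il22 (edgeR unadjusted p = 0.04711 and 0.03375, adjusted p = 0.9715 for both), and without mouse 9 Il17a was at -1.38. Fitted values against libraries at 0 depend on the prior count and are no bounds.
Il10ra had a log2FC of -1.45 (SE 0.667, interval -3.05 to 0.15; edgeR unadjusted p = 0.0696, adjusted p = 0.9999). For Il17ra the log2FC was -0.26 (SE 0.173, interval -0.68 to 0.15) and for Il22ra1 0.00 (SE 0.316, interval -0.76 to 0.76), the narrowest intervals of the 8, which leave room for a change of up to about these bounds. Il23r had -1.48 (SE 1.28), Il22ra2 0.88 (SE 0.608) and Il23a 0.26 (SE 0.851), each with an interval that spans 0. Each of the 8 members had an edgeR adjusted p of 0.9999. Summing the counts of Il22 and Iltifb gave a log2FC of -2.22 (SE 2.16). Iltifb itself had 4 counts in mouse 1, 15 in mouse 7 and 0 in the other colon libraries, beside 66 and 108 counts of Il22 in mice 1 and 7 and 167 in mouse 9.

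**Figure D2:**
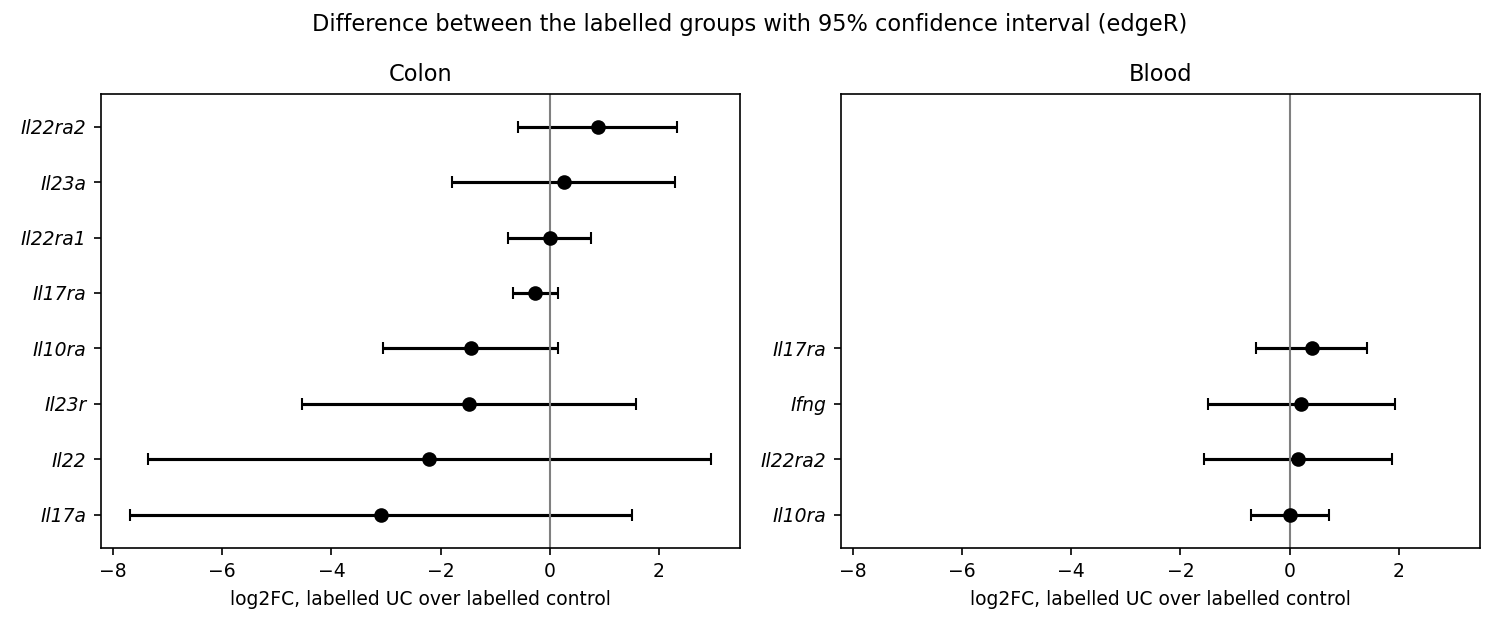
Fitted log2FC of labelled UC over labelled control (horizontal axis, points) with 95% confidence intervals (bars) for the 8 members tested in colon and the 4 tested in blood, from edgeR with 3 libraries per group. Every interval spans 0, and those of Il17a and Il22 in the colon are the widest.

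Which libraries held the 3 highest values was read for every member as a description. In the colon they were mice 1, 7 and 9 for 6 of 10 members (Il17a, Il17ra, Il22, Il23r, Il10 and Il10ra), and for 5 of the 8 that passed the filter, beside 18.2% of the 22182 colon genes that were tested and in the table. Il17a and Il22 could pass the filter only through mice 1, 7 and 9, having no counts in the other colon libraries. The count was thus partly fixed by the filter and is not read as a result. Il10 did not pass the filter, while the share is over genes that did. Il22ra1 was highest in mice 1, 4 and 8, Il22ra2 in mice 2, 4 and 7, Il23a in mice 1, 4 and 9, and Ifng in mice 7, 8 and 9. Splitting the mice by these values would use the outcome to form groups, so no test was made.

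Levels of different members can be compared only per length, here as normalized counts per kilobase of exon in the colon. Il22ra1 was first with a mean of 2103 ± 595 per kilobase (SD, n = 6), and every colon library of it lay above every library of Il17ra, at 265.7 ± 37.5. Below these came Il10ra at 202.8 ± 166.3, Il22ra2 at 79.8 ± 49.1 and Il22 at 52.5 ± 63.4 per kilobase. Il17ra exceeded Il10ra in 4 of 6 libraries, Il10ra exceeded Il22ra2 in 4 of 6 and Il22ra2 exceeded Il22 in 3 of 6, with overlapping ranges each time. The last 5 were Il10 at 20.4 ± 32.8, Ifng at 18.7 ± 35.6, Il17a at 14.1 ± 23.7, Il23r at 7.71 ± 6.94 and Il23a at 7.42 ± 4.99 per kilobase, and no neighbours among them had separate ranges. In the 3 libraries with Il22 counts, Il22 per length was 1.41, 1.46 and 4.37 times Il22ra2 in mice 1, 7 and 9.

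In blood, the receptors Il17ra and Il10ra were readily measured and the cytokines were near or at 0. Il17a, Il22, Il22ra1 and Il10 had 0 counts in all 6 blood libraries, and with Il23a and Il23r they did not pass the filter, so 6 of 10 members are too low to read there. Il17ra stood at 13218, 4842 and 4778 normalized counts in labelled UC blood, against 6581, 3887 and 6691 in labelled control blood. Its 3 highest were mice 1, 7 and 9, as for Il22ra2, a pattern held by 11.8% of the 16727 blood genes tested and in the table.
Il10ra had 3358, 1800 and 3971 against 2987, 3362 and 2683 normalized counts, with both extremes among the libraries labelled UC. Il22ra2 had 40.0, 16.6 and 12.3 against 23.0, 6.89 and 31.4, and Ifng had 14.7, 19.6 and 6.55 against 17.6, 6.89 and 9.93, from 6 to 23 counts. Il23r had 27 counts in mouse 1, 3 in mouse 4 and 0 elsewhere, and Il23a had 6 in mouse 2 and 0 elsewhere. The labelled groups overlapped for all 6 members of the blood table, in which 5.76% of genes had no overlap.
Per kilobase, Il10ra (865.3 ± 211.5, SD, n = 6) and Il17ra (769.6 ± 391.7) led in blood and did not separate, and each library of Il17ra lay above every one of Ifng (9.69 ± 4.29) and Il22ra2 (8.68 ± 4.96).

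**Figure D3:**
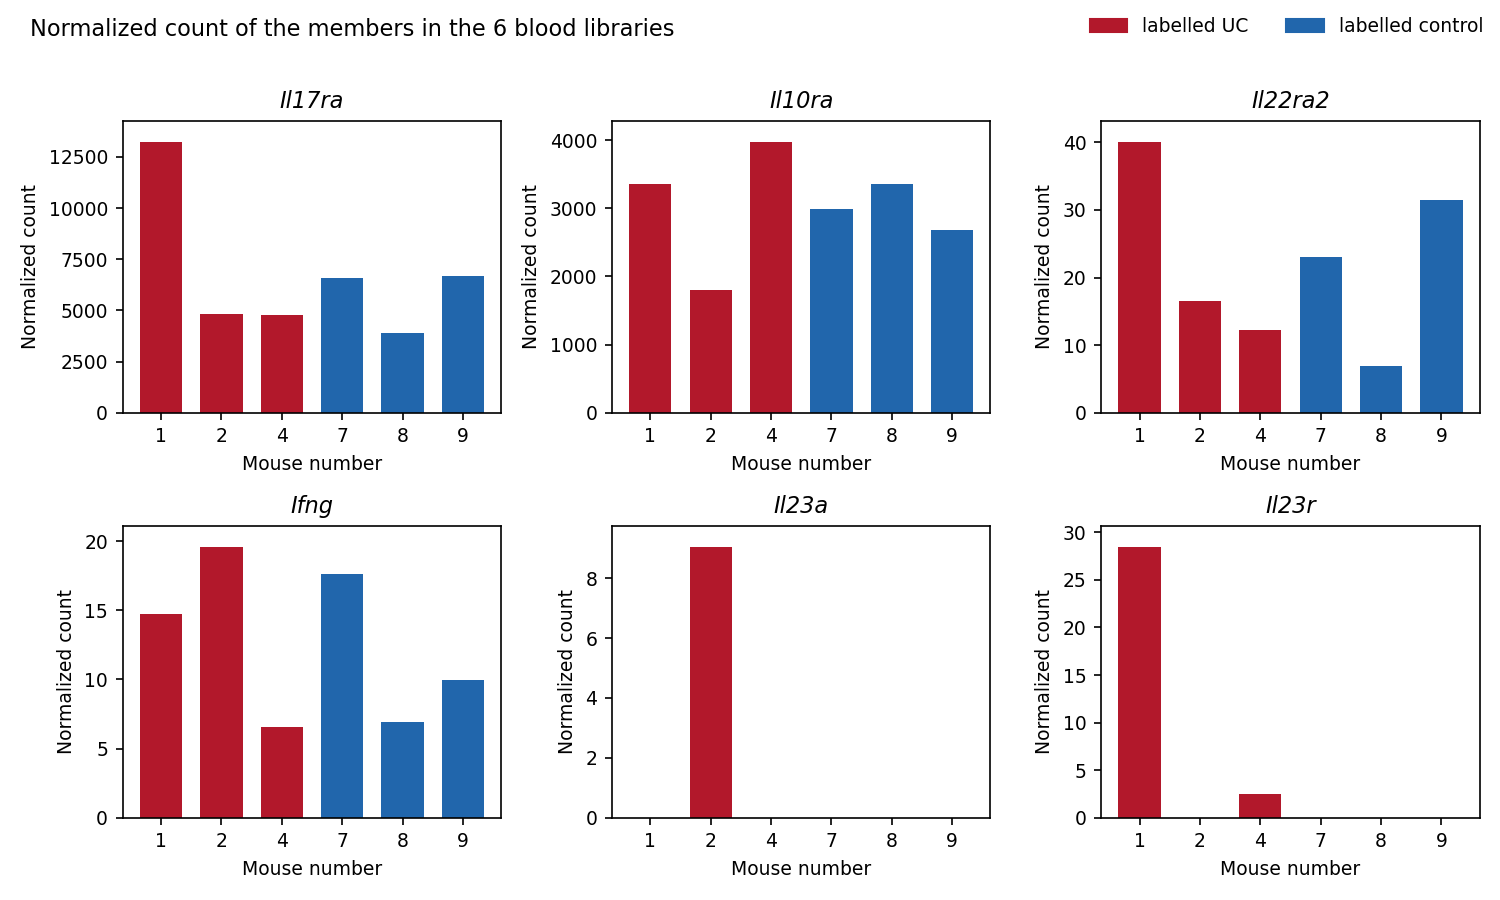
Normalized count (vertical axis, linear from 0) of the 6 members in the blood table, by mouse number, 1 bar per library, red where labelled UC and blue where labelled control. Il17ra is highest in mouse 1 at 13218 and Il10ra runs from 1800 to 3971, while Il23a and Il23r are at 0 in most libraries.

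No gene was called between labelled UC and labelled control blood by edgeR, that is 0 of 16759 (0.0%) and 0 of the 4 members tested, with 241 genes at an unadjusted p under 0.05 and 6 genes, no member, called by DESeq2. The log2FC was 0.41 for Il17ra (SE 0.440, 95% confidence interval -0.61 to 1.42), 0.01 for Il10ra (SE 0.310, interval -0.71 to 0.73), 0.16 for Il22ra2 (SE 0.746) and 0.21 for Ifng (SE 0.741). Leaving out mouse 1 turned the sign of Il17ra (-0.24) and Il22ra2 (-0.51), and leaving out mouse 8 also turned that of Il22ra2 (-0.25).
An interaction contrast over the 12 libraries asked if the label had a different effect in colon than in blood. It called 1 of 23258 genes (0.0043%) and 0 of 9 members. Of these 9 only Il17ra, Il10ra and Il22ra2 passed the filter in both tissues. Il17a, Il22 and Il22ra1 had 0 counts in all blood libraries, so they had no blood effect to contrast and their lack of a call is not read as a result. Il10ra differed by -1.48 (SE 0.783) and Il17ra by -0.68 (SE 0.548) on the log2 scale, colon minus blood. Ifng had the lowest p of the members, with a difference of -4.58 (SE 1.57), an edgeR unadjusted p of 0.01415 and an adjusted p of 1. It was -2.40 without mouse 9 and -3.79 (SE 1.85, 95% confidence interval -8.14 to 0.56) with mouse as a replicate block. With that block 0 genes were called.

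Between tissues, Il22ra1 was found only in the colon libraries, and Il17ra and Il10ra were higher in blood. Their partner chains did not all follow. Il17rc had from 5393 to 12900 counts in the colon libraries and at most 3 in any blood library. It entered the fit of both tissues through the colon alone, so its call there is not read as a result. Il10rb was not called (log2FC -0.24). Values are CPM, counts scaled to a common library size by edgeR's TMM over all 12 libraries. Il22ra1 was at 30.0 ± 8.48 CPM in the colon (SD, n = 6) and at 0 in every blood library. Its colon mean was 542-fold the mean floor of 0.0553 CPM for 3 counts per blood library, a ratio of means and not a lower bound. Il22, Il10 and Il17a were at 0 in all blood libraries and in 3 of 6 colon libraries, with colon means of 0.326, 0.148 and 0.0921 CPM, or of 0.225, 0.0601 and 0.0318 CPM without mouse 9, so no fold is given. Il17ra was at 12.8 ± 1.94 CPM in the colon and 121.3 ± 62.8 CPM in blood, and Il10ra at 3.96 ± 3.28 and 55.0 ± 13.7 CPM. On this TMM scale neither gene overlapped between tissues.
In the edgeR fit Il10ra had a log2FC of -3.98 (SE 0.438, adjusted p = 1.238e-05) and Il17ra one of -3.24 (SE 0.298, adjusted p = 3.156e-06), colon over blood, and both kept their sign and call in all alternatives. Il22ra2 was higher in the colon (1.10 ± 0.666 against 0.395 ± 0.228 CPM, log2FC 1.41, SE 0.506, adjusted p = 0.02696). With the replicate block the adjusted p of Il22ra2 was 0.08102. Ifng, which failed the filter in the colon and entered the fit through blood, had a log2FC of -1.998 (SE 0.780, adjusted p = 0.0388, or 0.05138 with the block). Leaving out any of mice 2, 4, 7 or 8 ended the call of Il22ra2 (log2FC from 1.04 to 1.35), and leaving out any of mice 1, 2, 4, 7 or 8 ended that of Ifng (-2.27 to -1.53). Of the 9 members in the joint fit 7 were called, 4 higher in the colon and 3 higher in blood, or 4 of 9 with the block, beside 37.7% and 20.8% of 23258 genes called in these directions. Il22ra1, Il22 and Il23a entered that fit through the colon alone and Ifng through blood alone, so the count was partly fixed by the filter and is not read as a result. Il17ra, Il10ra and Il22ra2 passed the filter in both tissues. Il17a (adjusted p = 0.07813) and Il23r (0.1818) were not called.
The median log2FC of all genes was 0.459 with TMM and 2.57 when only the total count set the library size. On total counts Il10ra stayed lower in the colon (-1.82) and Il17ra too (-1.11), but single libraries of both genes then overlapped between tissues. Il17ra was at 24.1 CPM of total counts in blood of mouse 8 and 34.3 in colon of mouse 9. Il10ra was at 14.8 in blood of mouse 2 and 19.9 in colon of mouse 9. Ifng changed sign to 0.12 on total counts, so its direction between tissues is set by the scaling. Depletion differed as well, with globin RNA removed only from blood, and cannot be told apart from tissue. Fewer cells of a type and less RNA per cell cannot be told apart in these bulk libraries.

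**Figure D4:**
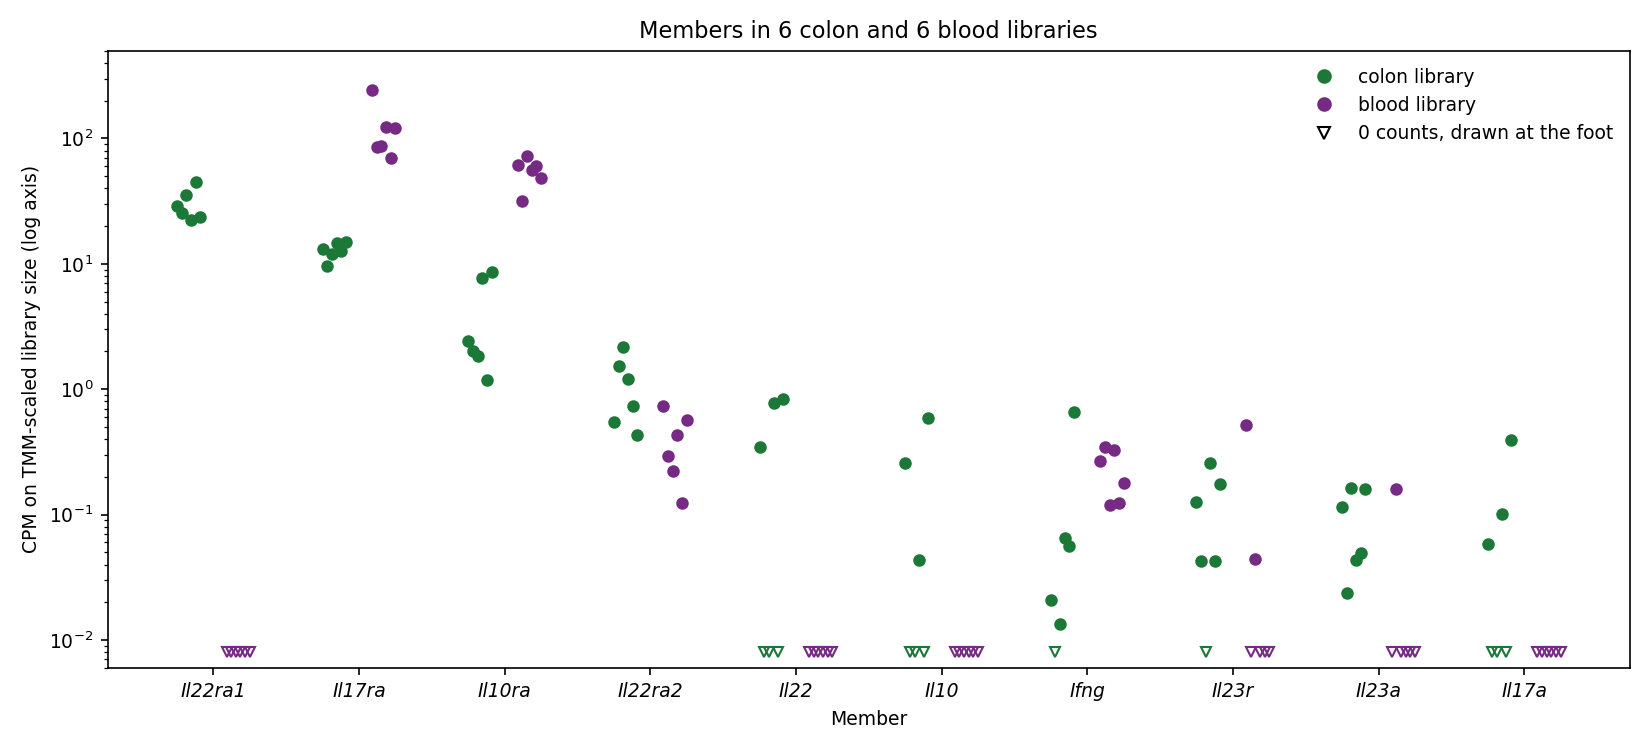
CPM on TMM-scaled library sizes (vertical log axis) of the 10 members (horizontal axis), 1 point per library, green for the 6 colon and purple for the 6 blood libraries, with open triangles at the foot for libraries at 0 counts. Il22ra1 is seen only in the colon libraries. On this scale Il17ra and Il10ra are higher in every blood library than in every colon library. Il17a, Il22 and Il10 have 3 colon libraries and all blood libraries at 0.

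The other genes of these pathways were read as lists, with no list test, and none of their tested genes was called between labels in either tissue. Of the IL-17 family list (Il17f, Il17rc and others), 8 of 10 genes were tested in the colon, 3 with a positive and 5 with a negative log2FC, with a median of -0.08 beside -0.01 over all genes. The lowest was Il17f, the nearest relative of Il17a, at -1.64 (SE 0.650, edgeR unadjusted p = 0.04197, adjusted p = 0.9999), and the highest Il17re at 0.41. Il17f stood at 14.2, 7.84 and 6.60 normalized counts in labelled UC colon, against 24.0, 13.9 and 51.3 in labelled control colon, so it was present where Il17a was at 0. Il17rc, the partner of Il17ra, had between 6163 and 11150 normalized counts in the colon.
Of 10 IL-17 target genes 9 were tested, 8 with a negative log2FC (median -1.80), from Csf3, which encodes the granulocyte growth factor, at -3.32 (SE 2.46) to Ccl20 at 0.05, and 8 of 10 were highest in mice 1, 7 and 9. Of 8 IL-22 target genes, 4 had a positive and 4 a negative log2FC (median -0.27), from S100a9 at -1.88 to Reg3b at 3.09 (SE 3.86), and 6 were highest in mice 1, 7 and 9. Reg3b, an antimicrobial lectin of the epithelium, stood at 985376, 7.84 and 0 normalized counts in labelled UC colon, against 108204, 17.6 and 5504 in labelled control colon. Its order among mice 1, 7 and 9 is the reverse of that of Il22, which was highest in mouse 9 and lowest of the 3 in mouse 1.

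**Figure D5:**
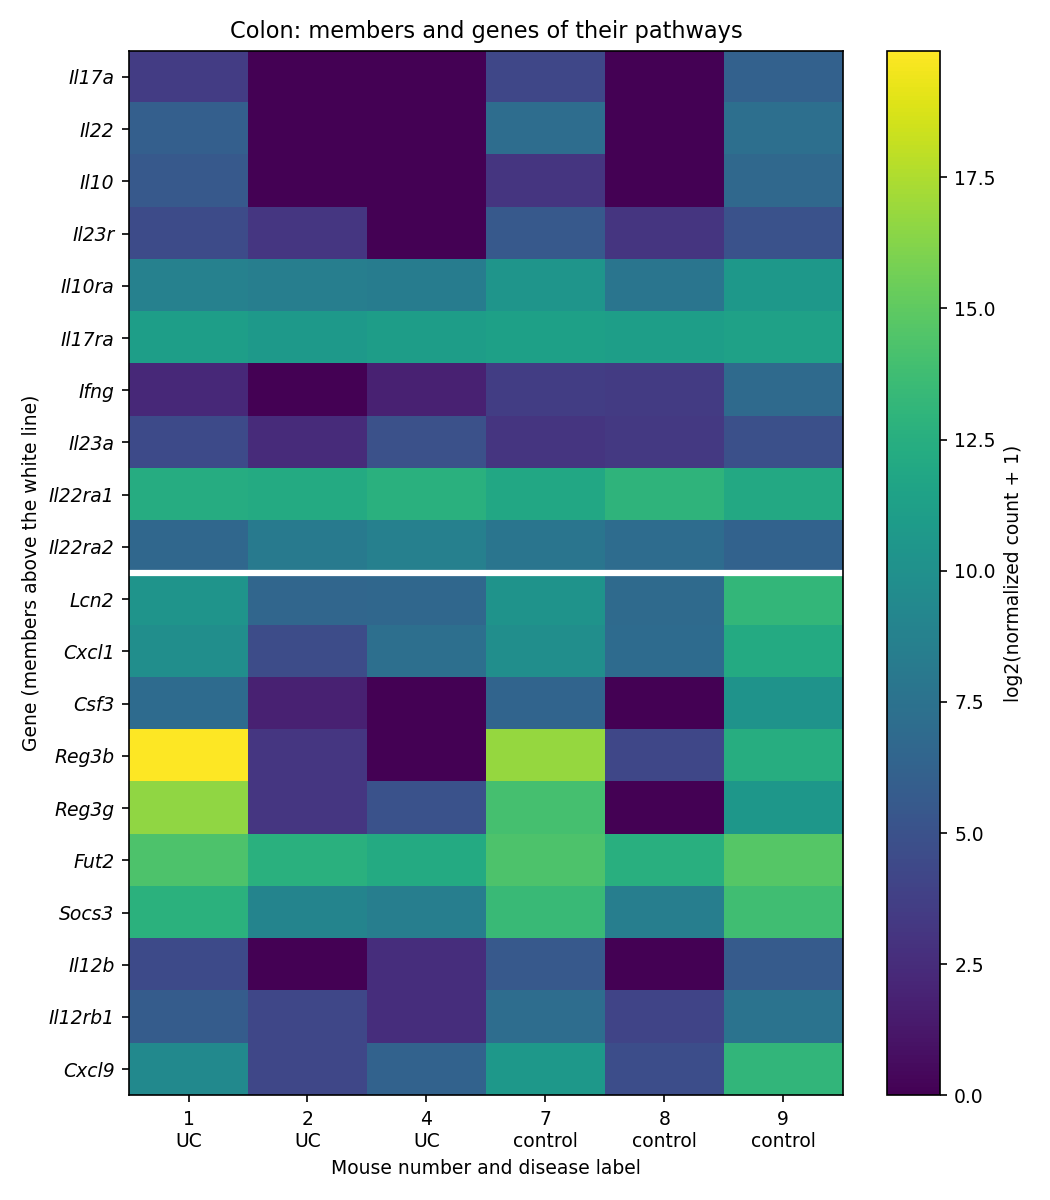
Colour scale of log2(normalized count + 1) for the 10 members (above the white line) and 10 genes of their pathways (below it) in the 6 colon libraries, in columns by mouse number and disease label. Il17a, Il22 and Il10 are at the foot of the scale in mice 2, 4 and 8, and Lcn2, Cxcl1, Csf3, Reg3b, Reg3g, Fut2, Socs3 and Cxcl9 are each lower there than in mice 1, 7 and 9. The 10 pathway genes were picked with their values in view and do not stand for their lists. Of genes not shown, Ccl20 and Saa1 were highest in mice 1, 4 and 9 and Ifngr1 in mice 4, 7 and 8.

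All 5 tested genes of the IL-12 and IL-23 list had a negative log2FC (median -1.85), from Il12rb1 at -2.16 (SE 1.10) to Il12a at -1.39, and so did all 6 of the IL-10 signalling list (median -0.34), from Nfil3 at -0.85 to Jak1 at -0.15. The 3 tested genes of the IL-20 subfamily list ran from Il20ra at -0.97 to Il10rb, the shared chain of both receptors, at 0.09, with 1 positive, 2 negative and a median of -0.23. Il10rb had between 3217 and 6463 normalized counts in the colon. Of 9 interferon gamma receptor and target genes, 8 had a negative log2FC (median -1.19), from the T cell chemokine gene Cxcl9 at -3.70 (SE 1.996) to Ifngr2 at 0.09. Of 12 lymphocyte regulators, 11 were negative (median -1.02), from Foxp3, the regulator of regulatory T cells at -2.27 upward. Highest in mice 1, 7 and 9 were 5 of 6 IL-12 and IL-23 genes, 3 of 6 IL-10 signalling genes and 6 of 9 interferon gamma genes. The same held for 6 of 12 lymphocyte regulators and 1 of the 5 IL-20 subfamily genes in the colon table. Of those mice, 1 is labelled UC and 7 and 9 are labelled control.
In blood the medians of these lists lay between -0.04 (lymphocyte regulators) and 0.41 (IL-12 and IL-23 list), beside 0.04 over all genes tested.

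Some of the cell type marker lists held genes with the same 3 highest colon libraries as Il17a, Il22 and Il10, in any order, and others did not. Summed T cell markers were 1230, 299.6 and 438.8 normalized counts in labelled UC colon, against 1806, 297.5 and 1768 in labelled control colon, and all 7 genes of the list were highest in mice 1, 7 and 9. All 7 neutrophil markers were too, with sums of 34132, 7531 and 16571 against 26143, 17813 and 65002. Ly6g, 1 of these 7, alone had between 7350 and 25479 normalized counts in the colon and weighs on these sums. Also highest in mice 1, 7 and 9 were 6 of 7 macrophage and monocyte markers, 4 of 6 dendritic cell markers and 3 of 7 gamma delta T cell and innate lymphoid markers. None of the 6 epithelial, 5 B cell or 5 red cell markers was highest in those 3 mice. By label the summed T cell markers ran from 299.6 to 1230 in labelled UC and from 297.5 to 1806 in labelled control colon, and no marker of any of these lists was at 0 in all colon libraries. The part of these cells in the values of the members was not tested.
In the tissue comparison all 7 T cell markers were called higher in blood, as were 6 of 7 neutrophil markers. The exception, Ly6g, was called higher in the colon (log2FC 2.90). All 6 epithelial markers, like Il22ra1, were called higher in the colon. Of these 6 only Epcam and Cdh1 passed the filter in blood. The other epithelial markers and Il22ra1 entered the fit through the colon alone, so their calls were partly fixed by the filter. In blood 1 of the 6 epithelial markers, Krt20, was at 0 in every library.

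The genes whose colon pattern was most like that of each member were found by the mean absolute difference of centred log2(normalized count + 1) over the 6 libraries, among 17727 genes with a mean of at least 50 normalized counts. Nearest to Il17a were Lcn2 (0.228), which encodes a siderophore-binding protein of neutrophils and epithelium, Il1rl1 (0.277) and the neutrophil growth factor receptor gene Csf3r (0.288), where Il17a itself spanned 6.17. For Il22, which spanned 7.24, they were A730049H05Rik (0.102), AC140267.1 (0.382) and Lrg1 (0.419). For Il10ra they were Napsa (0.120), Mndal (0.122) and the T cell gene Cd4 (0.142), for Il23r Dpep2 (0.377), Rtn4rl2 (0.446) and Pheta2 (0.506), and for Il17ra Arhgdia (0.030), H2-T22 (0.041) and BC029722 (0.044).
For Il22ra1 the 3 nearest included Cirbp (0.051) and Cfap97 (0.069), Il22ra2 was nearest to Ighv1-9 (0.154), Nkiras2 (0.192) and the muscle filament gene Des (0.230), and Il23a was nearest to Ifit1bl1 (0.355), Rnu3a (0.362) and Gpr158 (0.395). These values share the same 6 libraries and describe likeness only.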

How the data were processed

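Total RNA of colon (ribosomal RNA removed) and whole blood (globin and ribosomal RNA removed) was sequenced by the study. The authors mapped reads to GRCm38 with STAR and derived the deposited gene counts from StringTie 1.3.4c coverage on Ensembl annotation with default options, so each count is a whole number drawn from coverage. No library strand is stated. The deposited normalized tables are a signal scale, made by the authors as count divided by 1 factor per library within a tissue. Dividing 1 table by the other gave a single factor for 100% of genes per library. In both tables the columns stand in the order mice 1, 7 and 9, then 2, 4 and 8.

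Groups came from the disease state and tissue labels with mouse numbers read from sample titles. The members and gene lists were chosen with earlier results of these data known. The tests used edgeR 4.0.16 under R 4.3.3 (filterByExpr, TMM, quasi-likelihood, Benjamini-Hochberg over all genes), with calls at an adjusted p no higher than 0.05 and, except in the interaction, a log2FC past 1 in either direction. Fitted log2 changes have SE values of the log2FC over the square root of F. A member that failed filterByExpr in a tissue is called too low to read. Named beside the members were the genes with the highest and lowest colon log2FC of each list, the partner genes Il12b, Il12rb1, Il10rb, Il17rc, Il17f and Iltifb, and the 3 genes nearest in pattern. Of the genes these rules chose, 2 are not reported here. S100a8, the companion genes in the colour plot, Krt20 and some T cell and neutrophil genes were picked with their values in view. Other settings were RLE normalization, no filter, DESeq2 1.42.0, genes of the normalized tables only, each mouse left out, the mouse number as replicate block, and, added after seeing the data, Il22 and Iltifb summed and library size only. Each fit was first tested on simulated counts with known changes.

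Colon and blood came from the same animals in the study, whose number stands in both titles. Deviations from group means of same-numbered libraries correlated over 15802 genes with r from 0.087 to 0.2715. Nothing states whether libraries of a group differ in day or cage. The p-values are set against the spread between libraries of a labelled group, whatever its source. Except with the replicate block, the fits of both tissues took colon and blood of a mouse as independent. Intervals and floors cover counting error or the fitted spread only.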

Additional observations from a re-analysis of the deposited data

How the results depend on the processing

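No member was called between labels, or in the interaction, under any alternative run. The genes called numbered 1 in the colon, 0 in blood and 1 in the interaction, against 6, 6 and 21 with DESeq2, and 0 in the interaction with mouse as a replicate block. Without 1 mouse each, genes called ran from 0 to 0 in the colon, from 0 to 3 in blood and from 1 to 2 in the interaction. Members called between tissues fell from 7 to 4 with the replicate block and to between 3 and 5 without 1 mouse each. With genes of both normalized tables, 5 of 6 members tested were called between tissues.

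Some fitted log2FC changed sign. Leaving out mice moved Il23a in the colon between -0.282 and 1.12, and in blood Il10ra between -0.23 and 0.281, Il17ra between -0.243 and 0.653, Il22ra2 between -0.51 and 0.598 and Ifng between -0.13 and 0.67. The interaction of Il22ra2 ran from -0.043 to 1.794, and Il22ra1 in the colon, at 0.00, from -0.18 to 0.416. Il10ra in blood was -0.003 with genes of the normalized table, and Ifng between tissues was 0.12 on library size only. The cause of these shifts was not tested. Il17a, Il22, Il10, Il23a, Il23r and Ifng had at most 167 counts in any colon library, and a count of 0 allows up to 3. For Il17a and Il22 in the colon the values without 1 mouse each ran from -7.914 to -1.38 and from -9.598 to -1.623.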
